A study of Mus musculus with 8 samples.

Results

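Immunoglobulin variable (V) segments are the germline gene pieces that encode most of the antigen-binding part of an antibody, and the segments counted here were the 216 mouse genes of GENCODE M21 with the gene type IG_V_gene and an Ighv, Igkv or Iglv name. They were 113 heavy chain, 100 kappa light chain and 3 lambda light chain segments out of 35944 genes in the table. RNA came from the buffy coat, the layer of white cells and platelets in centrifuged blood, of mice exposed to PM2.5 (fine airborne particles) or given PBS (phosphate-buffered saline) as the control, in a study of 24 weeks. Each group has 4 libraries, called here by their label numbers, which are 9, 17, 18 and 21 for PM2.5 and 4, 10, 12 and 16 for PBS. No strain, sex, age, dose or route is given in the labels, nor a statement that each library is a separate animal, so every spread is a spread between these libraries.

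A developing B cell joins 1 heavy V segment to a D and a J segment, and 1 kappa or lambda V segment to a J segment. The joined exon is transcribed and spliced to a constant region such as Ighm (IgM), Ighd (IgD), Igkc (kappa) or Iglc1 to Iglc3 (lambda). Each B cell clone therefore expresses mostly 1 heavy and 1 light V segment, and blood normally holds many clones. Plasma cells and expanded clones can add much RNA from few segments, so both the level and the evenness of V transcripts describe the B cell compartment of a blood sample. In bulk RNA, fewer B cells and less V transcript per B cell cannot be told apart.

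The heavy segments lie on chromosome 12 between 113578504 and 116000461, the kappa segments on chromosome 6 between 67555497 and 70704177, and the lambda segments on chromosome 16 between 19085017 and 19260859 (GRCm38). The sequences below are of leading segments of 1 subgroup per locus, Ighv1 and Igkv1, and show where such relatives differ. The lines give the last 120 coding bases of the V exon, 5′ to 3′, from the GENCODE M21 transcripts. In the heavy set this stretch runs through the third framework to the start of the third complementarity-determining region, where the joined sequence of each clone begins. In the kappa set it runs further, into the part of that region that the V segment encodes. Ighv1-82 (chr12:115952538-115952657, minus strand) is the reference of the heavy set, and capitals mark bases that differ from it.
Ighv1-82: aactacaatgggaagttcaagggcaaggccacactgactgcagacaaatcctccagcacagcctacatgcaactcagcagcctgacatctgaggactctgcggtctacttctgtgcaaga
Ighv1-19: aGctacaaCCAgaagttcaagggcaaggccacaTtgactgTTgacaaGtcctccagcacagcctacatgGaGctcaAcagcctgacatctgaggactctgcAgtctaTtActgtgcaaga
Ighv1-26: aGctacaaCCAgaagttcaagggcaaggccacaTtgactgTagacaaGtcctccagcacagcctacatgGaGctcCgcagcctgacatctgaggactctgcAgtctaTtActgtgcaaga
Ighv1-34: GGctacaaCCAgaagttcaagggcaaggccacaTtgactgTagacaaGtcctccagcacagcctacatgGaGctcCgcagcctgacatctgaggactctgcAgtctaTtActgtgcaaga
Ighv1-19 (chr12:114708648-114708767), Ighv1-26 (chr12:114788372-114788491) and Ighv1-34 (chr12:114851190-114851309), all on the minus strand, differed from Ighv1-82 at 14, 13 and 14 of the 120 bases. Over the whole V exon they were 85.2%, 85.2% and 85.6% identical to it. For the kappa set, Igkv1-117 (chr6:68121708-68121827, plus strand) is the reference, beside Igkv1-135 (chr6:67610389-67610508) and Igkv1-110 (chr6:68271148-68271267), both on the plus strand.
Igkv1-117: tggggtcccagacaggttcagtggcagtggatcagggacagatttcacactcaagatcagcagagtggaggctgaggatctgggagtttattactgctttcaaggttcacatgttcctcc
Igkv1-135: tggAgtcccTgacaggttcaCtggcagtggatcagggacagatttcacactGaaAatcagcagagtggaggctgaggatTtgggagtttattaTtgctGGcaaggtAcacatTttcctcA
Igkv1-110: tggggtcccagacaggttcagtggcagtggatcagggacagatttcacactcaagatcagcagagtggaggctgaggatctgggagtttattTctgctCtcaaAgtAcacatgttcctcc
Igkv1-135 differed from Igkv1-117 at 12 of these bases and Igkv1-110 at 4, with 79.9% and 96.8% identity over the whole V exon. The other leading kappa segments, such as Igkv10-96, are of other subgroups.

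Over the whole V exon the nearest other member of the locus was 95.1% identical for the median heavy segment and 94.3% for the median kappa segment. Of the heavy segments, 57 had a relative at 95% identity or more, and those 57 held 76.3% of heavy V counts. Among kappa segments the same held for 45, with 62.8% of the counts. Every stretch of 75 bases was unique among V genes and V pseudogenes in 49 of the 113 heavy and 42 of the 100 kappa segments. Ighv1-72 was the least distinct of the leading segments: 15.2% of its stretches were unique, and it was 99.0% identical to Ighv1-62-3, which had 0 counts in every library. Ighv1-62-2 and Ighv1-71 were identical. Counts of single segments are therefore uncertain where relatives share reads, and 5.48% of the members' values above 0 were not whole numbers, against 22.6% over all genes.

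Libraries held 72081019 to 89032794 expected counts, of which haemoglobin genes took 82.4% to 88.6%. V segments took 526 to 1486 counts per library, so every share below rests on 22 to 766 counts per locus, and intervals cover counting error only. B cell markers were present in all libraries, with a summed level of 44.4 to 56.0 CPM (counts in 1000000 of the library total after TMM scaling, edgeR's trimmed mean of M-values) with PM2.5 and 50.2 to 81.9 with PBS. The neuronal and glial genes Snap25, Syt1, Camk2a and Slc1a2 had 20 to 97 counts each in PM2.5 replicates 17 and 18 and at most 10 in any other library, and the part of these 2 libraries in a result is given where leaving them out changes it.

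Transcripts from V segments were present in every library and their total overlapped between the groups. The total was 9.27 CPM (TMM-scaled) in PM2.5 replicate 9, 10.2 in replicate 17, 9.73 in replicate 18 and 11.3 in replicate 21. With PBS it was 11.7 in replicate 4, 12.7 in replicate 10, 8.87 in replicate 12 and 13.5 in replicate 16. PBS replicate 12 was the lowest of all 8 libraries and the other 3 PBS libraries were above every PM2.5 library. The means were 10.1 ± 0.850 CPM with PM2.5 against 11.7 ± 2.02 with PBS (SD, n = 4 each), a log2 ratio of means of -0.21. No test was made of this total or of the locus totals. Without PBS replicate 12 the log2 ratio was -0.32 and without PBS replicate 16 it was -0.14. Against all counts of a library, haemoglobin included, the means were 8.53 ± 2.53 and 15 ± 5.07 CPM on unscaled totals (SD, n = 4 each), a log2 ratio of -0.81, and the groups still overlapped. The haemoglobin share was highest in PM2.5 replicates 17 and 18 and PBS replicate 12, the libraries with the lowest V totals on that scale, and its part in the difference was not tested.

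**Figure D1:**
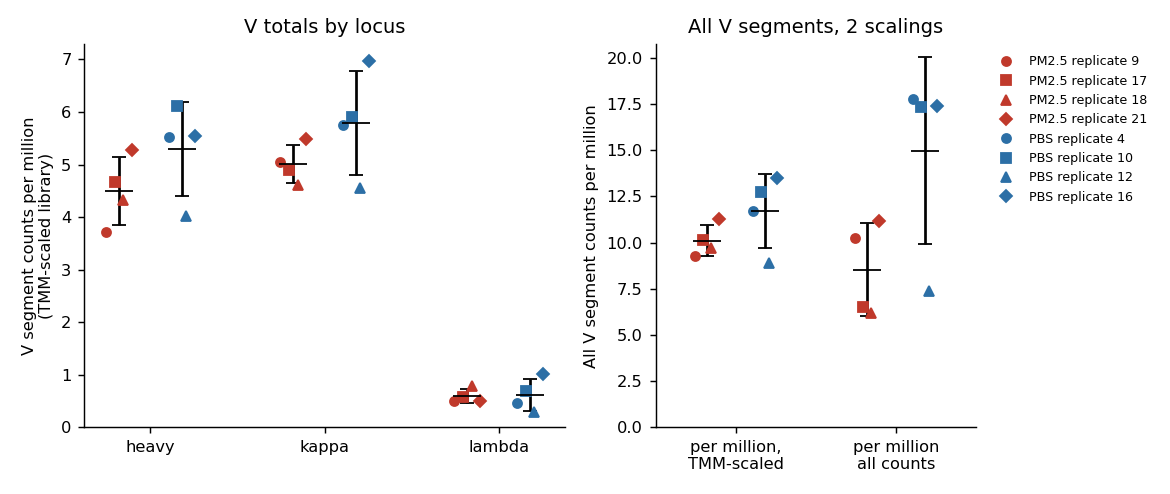
V segment CPM on the TMM-scaled library total for the heavy, kappa and lambda loci (left), and for all V segments on 2 scalings (right). Points are libraries, bars are means and SD (n = 4 per group); the groups overlap in every column, and PBS replicate 12 lies below the other PBS libraries.

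Heavy and kappa segments each took near equal parts of the V counts, and lambda segments a small and more variable one. Heavy segments took 44.4% ± 2.99 of them with PM2.5 against 45.4% ± 3.14 with PBS, and kappa segments took 49.6% ± 3.20 and 49.5% ± 2.41 (SD, n = 4 each). Lambda segments took 6.0% ± 1.55 and 5.07% ± 1.83, with a range over libraries of 3.35% to 8.17%. There were 5.79 to 10.7 kappa counts per lambda count with PM2.5 and 6.90 to 15.3 with PBS. Kappa therefore exceeded lambda in all 8 libraries, and no locus separated the groups.

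The constant regions with the highest levels, Ighm and Igkc, had lower means with PM2.5. Ighm was 22.4 to 29.4 CPM with PM2.5 and 25.7 to 39.3 with PBS, and its fitted difference was -0.38 on the log2 scale (SE 0.192, edgeR adjusted p = 0.303). Igkc was 9.33 to 11.4 CPM with PM2.5 and 10.6 to 16.2 with PBS, and the difference was -0.42 (SE 0.181, edgeR adjusted p = 0.236). Neither passed the test, and the groups overlapped for both. On the authors' FPKM scale, which divides by transcript length, the summed heavy V level was 235 to 315 per 100 of Ighm with PM2.5 and 231 to 303 with PBS. The summed kappa V level was 130 to 169 per 100 of Igkc with PM2.5 and 107 to 138 with PBS. Summed V transcripts thus exceeded the constant region per length at both loci in every library, and the group ranges overlapped.

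Relative to the summed counts of 14 B cell markers the groups did not overlap, unlike the ratios to Ighm and Igkc above. For each 1000 counts of the 14 B cell markers there were 189, 206, 219 and 201 V counts in PM2.5 replicates 9, 17, 18 and 21. In PBS replicates 4, 10, 12 and 16 there were 165, 155, 177 and 177. All 4 PM2.5 libraries were higher, with means of 204 ± 12.5 and 169 ± 10.6 (SD, n = 4 each). This ratio does not depend on scaling, was not tested, and is set by both of its parts. Of 13 B cell markers tested, 3 fell: Ebf1, a B lineage transcription factor (log2 fold change -1.12, SE 0.177, edgeR adjusted p = 0.0068), the kinase Blk (-0.81, SE 0.193, adjusted p = 0.0446) and the adaptor Bank1 (-0.79, SE 0.194, adjusted p = 0.0488). The call on Ebf1 stood with any single library left out, while those on Blk and Bank1 were each lost in 7 of 8 such fits, all but that without PBS replicate 12. Among other cell types, 4 of 5 neutrophil and 2 of 6 monocyte genes tested rose, and their part in these values was not tested. Over all genes tested 0.463% were called higher and 1.14% lower. Without PM2.5 replicates 17 and 18 the neutrophil gene Mmp8 and both monocyte genes, Ccr2 and Vcan, were still called, while S100a8, Mmp9 and Cxcr2 were not (adjusted p = 0.155, 0.233 and 0.307), and those 3 also lost their calls in 5, 5 and 6 of the fits without single libraries.

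Other genes of the immunoglobulin system gave the setting, beside 0.463% called higher and 1.14% called lower over all genes tested. Of 10 constant region and J chain genes tested, 2 rose: Igha, the IgA heavy constant region (log2 fold change 2.39, SE 0.483, edgeR adjusted p = 0.0207), and Jchain, which joins secreted IgA and IgM (2.28, SE 0.445, adjusted p = 0.0174). Leaving out PM2.5 replicate 18, PBS replicate 4 or PBS replicate 10 ended both calls, and leaving out PM2.5 replicate 21 ended that on Igha (largest adjusted p 0.0698 and 0.0728). Both were low, with Igha at 0.473 to 2.15 CPM with PM2.5 and 0.0823 to 0.476 with PBS. Of 6 plasma cell genes tested, Pou2af1, a coactivator of immunoglobulin promoters that B cells also express, fell (log2 fold change -0.69, SE 0.158, edgeR adjusted p = 0.0365), and none rose. That call was lost when PM2.5 replicate 17, 18, 21, PBS replicate 4 or PBS replicate 10 was left out. Without PM2.5 replicates 17 and 18 together, none of these 6 immunoglobulin, B cell and plasma cell genes was called, Ebf1 included (adjusted p = 0.13 to 0.371). Their log2 fold changes were then 2.07 for Igha, 1.81 for Jchain, -0.95 for Ebf1, -0.97 for Blk, -0.60 for Bank1 and -0.66 for Pou2af1. Tnfrsf17, the plasma cell receptor BCMA, had 0 counts in all 8 libraries. Among recombination and pre-B genes, Rag2, Vpreb1, Vpreb2 and Igll1 had 0 counts in all libraries and Rag1 did not exceed 0.0187 CPM, while Cd93, the single gene tested of that list, is also made by other blood cells. None of 8 T cell genes and none of 5 activated or germinal centre B cell genes tested was called.

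Single segments were then compared. Of the 216 segments, 24 had 0 counts in all libraries, 51 were counted in all 8, and 24 had enough counts for the edgeR test, which left 192 untested. The 24 tested segments, 10 heavy, 13 kappa and 1 lambda, held 50.8% of the V counts. None passed an adjusted p of 0.05 (edgeR quasi-likelihood test, Benjamini-Hochberg over 10361 genes), and 1 had an unadjusted p under 0.05. DESeq2 and limma also called 0 of them, with 1 and 9 at an unadjusted p under 0.05. Over all genes tested, 18% by edgeR, 18.5% by DESeq2 and 20.3% by limma had an unadjusted p under 0.05. Over all genes 1.6% were called, 0.463% higher and 1.14% lower, so 0 of 24 is close to that background. Of the tested segments 14 had a negative and 10 a positive log2 fold change. Their median was -0.16, and that of all genes tested was 0.04. Scaling to library totals, haemoglobin included, moved the median of all genes to -0.52 and turned Ighv1-19, Ighv1-26, Ighv14-3, Igkv1-117, Igkv1-110, Igkv10-94 and Iglv1 from positive to negative log2 fold changes.

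**Figure D2:**
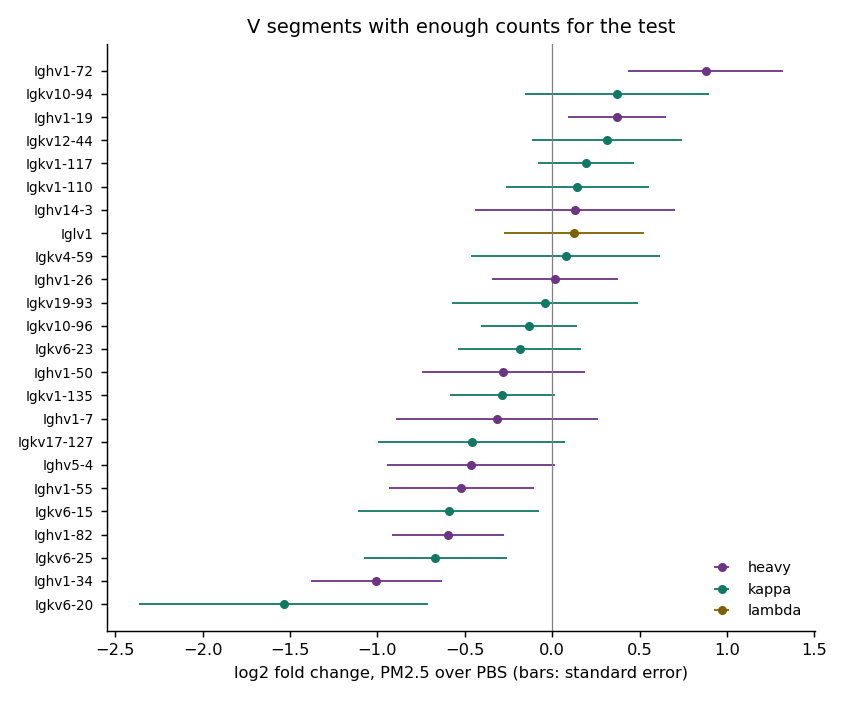
log2 fold change (PM2.5 over PBS) of the 24 V segments with enough counts, with standard errors, coloured by locus. Values run from -1.54 (Igkv6-20) to 0.88 (Ighv1-72), and none passed adjusted p 0.05.

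Ighv1-34 was the segment with the smallest p and the single tested segment whose CPM did not overlap between groups, where 9.66% of all genes tested did not overlap. It was at 0.237, 0.0916, 0.222 and 0.154 CPM in PM2.5 replicates 9, 17, 18 and 21 and at 0.375, 0.504, 0.257 and 0.291 in PBS replicates 4, 10, 12 and 16. Its log2 fold change was -1.01 (SE 0.374, adjusted p = 0.182), which did not pass. As a share of heavy V counts it was 4.09% ± 2.01 with PM2.5 against 6.67% ± 1.23 with PBS (SD, n = 4 each), and on that scale the groups overlapped.

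Ighv1-72 had the highest log2 fold change, 0.88 (SE 0.442, adjusted p = 0.3), which was 0.54 without PM2.5 replicate 18. It held 3.68%, 4.31%, 9.40% and 4.28% of heavy V counts in PM2.5 replicates 9, 17, 18 and 21 and 2.32%, 2.29%, 1.68% and 3.12% in PBS replicates 4, 10, 12 and 16. The groups did not overlap on this scale, and replicate 18 stood far above the rest of its group. Ighv1-19 also separated by share, with 9.69% ± 1.55 against 6.27% ± 0.852 (SD, n = 4 each), while its CPM overlapped (log2 fold change 0.37, SE 0.281, adjusted p = 0.492). These were 2 of the 24 heavy segments counted in all libraries, and none of the 25 such kappa segments separated by share. Over all genes tested 9.66% did not overlap on the CPM scale, a measure unlike shares. Taken over both loci, 2 of 24 heavy and none of 25 kappa segments is not above that background.

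Igkv6-20 had the lowest log2 fold change, -1.54 (SE 0.828, adjusted p = 0.332). It had 9, 0, 0 and 1 counts in PM2.5 replicates 9, 17, 18 and 21 and 3, 12, 12 and 14 in PBS replicates 4, 10, 12 and 16. The groups overlapped, and a count of 0, taken to allow 3 counts, allowed up to 1.12% of kappa counts in PM2.5 replicate 17 and 1.20% in replicate 18. Without PM2.5 replicate 9 its log2 fold change was -4.05, a fitted value that rests on 1 count in that group, and without replicates 17 and 18 it was -0.75. Igkv6-25 (-0.67, SE 0.411, adjusted p = 0.391) and Igkv10-94 (0.37, SE 0.526, adjusted p = 0.735) overlapped between the groups. The value of Igkv10-94 was 0.0679 without PM2.5 replicate 9 and 0.65 without replicate 17.

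The heavy segments with the highest mean share over the 8 libraries were found in all of them. Ighv1-82 took 7.99% of heavy V counts on average, Ighv1-19 took 7.98%, Ighv1-26 6.23%, Ighv1-34 5.38%, Ighv1-72 3.88% and Ighv14-3 3.63%. Ighv1-82 lies at chromosome 12, 115952538 to 115953005, near the far end of the locus from the J segments. It held 6.69%, 5.10%, 10.3% and 6.53% in PM2.5 replicates 9, 17, 18 and 21 and 6.63%, 10.8%, 7.38% and 10.5% in PBS replicates 4, 10, 12 and 16. It was first in 3 PBS libraries and in none of the PM2.5 libraries, and its 95% exact binomial intervals, such as 2.74% to 8.56% in PM2.5 replicate 17 and 8.55% to 13.5% in PBS replicate 10, were wide.

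Ighv1-19 (chromosome 12, 114708648 to 114709135) was first in PM2.5 replicates 18 and 21, at 12% (interval 8.10% to 16.8%) and 8.78% (6.32% to 11.8%). Ighv1-26 (114788372 to 114788805) was first in PBS replicate 4 at 8.29% (6.22% to 10.8%), and in PM2.5 replicate 9 it had 28 counts, as many as Ighv1-19. The order of Ighv1-82 and Ighv1-19 by mean share is not resolved, since their means differ by far less than their spread over libraries. No heavy segment exceeded 12% in any library.

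In PM2.5 replicate 17 the heavy segment with the most counts was Ighv14-3 (chromosome 12, 114059845 to 114060321). It took 9.41% of the heavy V counts of that library (24 of 255, interval 6.12% to 13.7%). Ighv1-19 was close behind with 22 counts (8.63%, interval 5.49% to 12.8%), so which of them leads is not resolved. Ighv14-3 and Igkv4-74 were named for their shares in these libraries, so the intervals are a description and not a test. The share of Ighv14-3 was 1.00%, 1.28% and 4.28% in PM2.5 replicates 9, 18 and 21 and 2.30% to 4.31% with PBS. The interval of replicate 17 lay above the intervals of PM2.5 replicates 9 and 18 and above that of PBS replicate 10 (1.40% to 3.93%) and PBS replicate 16 (1.26% to 3.83%). In the kappa locus of the same library Igkv4-74 took 5.62% (15 of 267, interval 3.18% to 9.10%). Igkv4-74 also had 10 counts in PM2.5 replicate 21, 5 in PBS replicate 10 and 3 in PBS replicate 16, and 0 in the other 4 libraries. PM2.5 replicates 17 and 21 thus held the highest counts of Igkv4-74, and replicate 17 the highest share of both segments; bulk counts do not show whether the same cells made them.

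**Figure D3:**
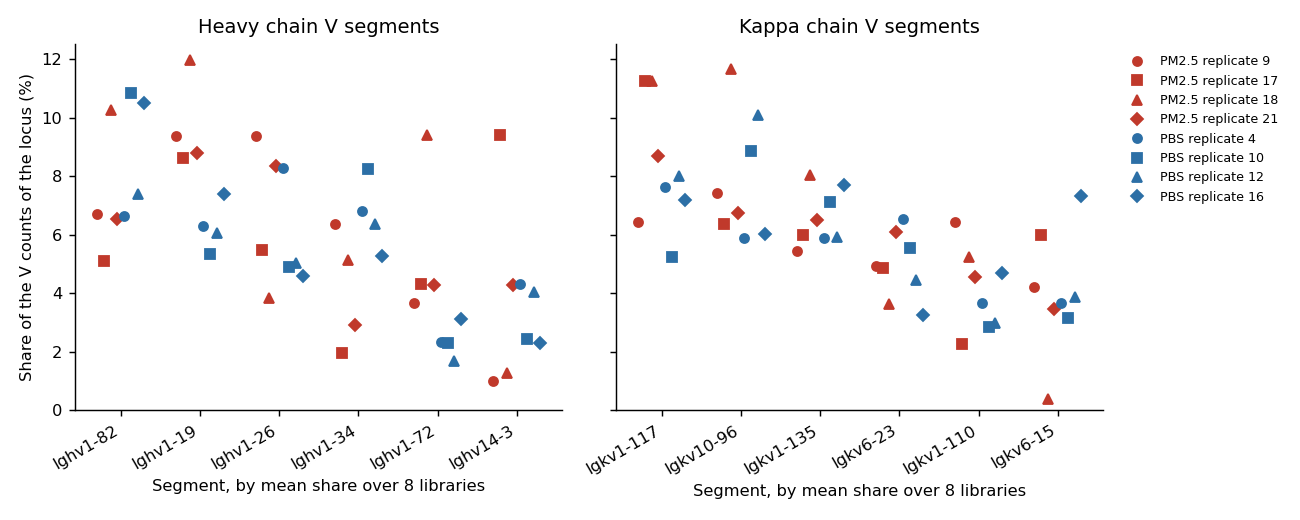
Share of heavy (left) and kappa (right) V counts held by the 6 segments with the highest mean share, one point per library, coloured by group. Ighv1-19 and Ighv1-72 lie higher in the PM2.5 libraries without overlap, Ighv14-3 is high in PM2.5 replicate 17, and Igkv6-15 is near 0 in PM2.5 replicate 18.

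Kappa usage was led by Igkv1-117 with a mean share of 8.20%, Igkv10-96 with 7.87% and Igkv1-135 with 6.58%, followed by Igkv6-23 (4.91%), Igkv1-110 (4.08%) and Igkv6-15 (4.01%). Igkv1-117 (chromosome 6, 68121046 to 68121827) held 6.42%, 11.2%, 11.2% and 8.68% in PM2.5 replicates 9, 17, 18 and 21 and 7.64%, 5.22%, 8.01% and 7.18% in PBS replicates 4, 10, 12 and 16. PM2.5 replicates 17, 18 and 21 were above every PBS library and replicate 9 was not, and its log2 fold change in CPM was 0.20 (SE 0.276, adjusted p = 0.734), from 0.0478 without PBS replicate 10 to 0.31 without PM2.5 replicate 9. Igkv10-96 (68631963 to 68632442) ranged from 6.37% to 11.6% with PM2.5 and from 5.89% to 10.1% with PBS. It was first in 4 libraries, 2 of each group.

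Igkv1-135 was the steadiest of the 3, at 5.43% to 8.03% with PM2.5 and 5.89% to 7.70% with PBS, and was first in PBS replicate 16. Igkv6-15 was the most variable of the leading kappa segments. It had a single count in PM2.5 replicate 18 (0.402%, interval 0.0102% to 2.22%) and 56 counts in PBS replicate 16 (7.31%, interval 5.57% to 9.39%). The remaining PM2.5 libraries had 3.47% to 5.99% and the remaining PBS libraries 3.16% to 3.86%. None of these leading kappa segments separated the groups.

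All 3 lambda segments were counted. Iglv1 took 63.4% to 81.4% of lambda V counts with PM2.5 and 36.4% to 71.2% with PBS, on 22 to 111 counts per library. It was first in 7 libraries. In PBS replicate 12, the library with the fewest lambda counts, Iglv1 and Iglv2 had 8 counts each and Iglv3 had 6. Iglv3 had 0 of 43 counts in PM2.5 replicate 18, which allows a share of up to 6.98% (3 counts). For Iglv1 the log2 fold change was 0.12 (SE 0.401, edgeR adjusted p = 0.893), and the other two were too low to test.

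Subgroups are families of related segments, and the shares of the large ones overlapped between the groups. Ighv1, the largest heavy subgroup, has 46.9% of the heavy segments and took 68.7% ± 4.75 of heavy counts with PM2.5 against 67.5% ± 5.41 with PBS (SD, n = 4 each). Ighv5 took 8.07% ± 3.25 and 7.92% ± 0.709, and Ighv2 5.13% ± 1.75 and 5.57% ± 2.28. In the kappa locus Igkv1 took 22.0% ± 2.33 and 19.5% ± 1.56 and Igkv6 17.3% ± 3.59 and 20.5% ± 2.55. Igkv4 has 26 of the 100 kappa segments and took 12.4% ± 3.62 and 11.7% ± 1.65, less than its part of the segments in every library. Of 39 subgroups, 2 (5.13%) had shares that did not overlap between groups, both small and chosen after their values were seen. Over all genes tested 9.66% did not overlap on the CPM scale, a measure unlike shares. Igkv17 took 2.66% ± 0.719 against 3.84% ± 0.545 (SD, n = 4 each), and Igkv11 at most 0.217% with PM2.5 and 0.261% to 0.478% with PBS. Igkv11 had a mean of 1.25 counts per library. Its count of 0 in PM2.5 replicate 17, taken to allow 3 counts, allowed up to 1.12% of kappa counts, above every PBS share. Its separation is therefore not resolved. When the segments were summed by subgroup before the edgeR fit, 19 subgroups had enough counts and none passed the test, the closest being Igkv5 (log2 fold change -0.89, SE 0.455, adjusted p = 0.309).

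Ighv11, a subgroup known from innate-like B-1 cells whose antibodies bind phosphatidylcholine, was singled out after its values were seen. It took 4.05% of heavy counts in PM2.5 replicate 21 and 0.305% to 2.35% in the other libraries. Nearly all of it was Ighv11-2, with 18 counts in PM2.5 replicate 21 and 1 to 6 elsewhere. Its level was too low to test.

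Position in the locus was described by the distance of each V segment from the nearest J segment, with the segments of a locus divided into 3 parts of about equal number. The heavy part nearest to J took 24.5% ± 3.82 of heavy counts with PM2.5 against 24.5% ± 4.12 with PBS, the middle part 35.7% ± 3.40 and 35.9% ± 3.28, and the far part 39.7% ± 5.29 and 39.7% ± 5.83 (SD, n = 4 each). The near heavy part was thus below the far part in the mean of both groups, and the group means were nearly equal in each part. In the kappa locus the near part took 28.8% ± 3.64 and 28.8% ± 2.48, the middle part 21.2% ± 3.66 and 22.4% ± 1.98, and the far part took the rest. The far kappa part led in all 8 libraries, at 46.2% to 57.0%.

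Kappa segments lie in both orientations, and joining to a J segment deletes or inverts the DNA between, depending on that orientation. The 38 plus strand segments took 46.1% ± 1.81 of kappa counts with PM2.5 against 45.2% ± 2.89 with PBS (SD, n = 4 each), with a range of 41.1% to 47.9%. All 113 heavy segments lie on the minus strand.

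**Figure D4:**
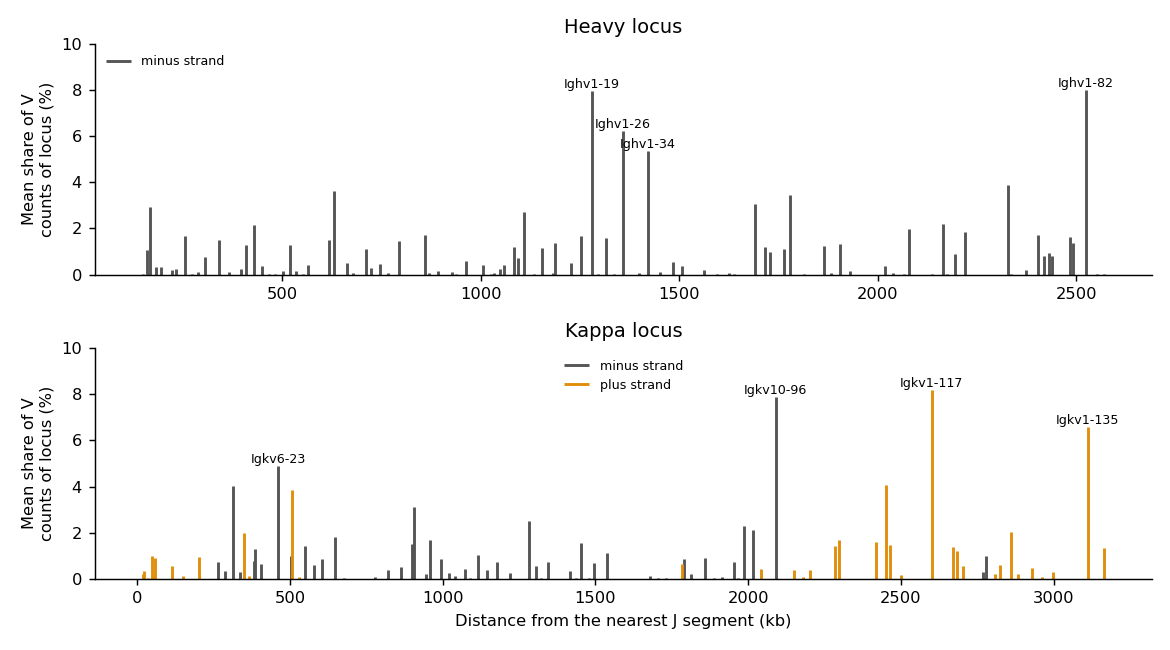
Mean share over 8 libraries of each V segment (percent of the V counts of its locus) against its distance in kb from the nearest J segment, for the heavy (top) and kappa (bottom) locus, coloured by strand. Counts are spread along both loci, with Ighv1-82 and Igkv1-135 near the far ends.

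Evenness was measured by the effective number of segments, the inverse Simpson index. It is the number of equally used segments that would give the same concentration, so it also depends on how many segments are counted. Pielou evenness divides the entropy of the shares by its largest value for the segments counted. Its means were 0.893 ± 0.0115 with PM2.5 and 0.882 ± 0.0219 with PBS for heavy segments (SD, n = 4 each). For kappa segments they were 0.891 ± 0.0122 and 0.887 ± 0.0124, and the groups overlapped at both loci. The effective number of heavy segments was 22.7, 24.8, 20.3 and 27.8 in PM2.5 replicates 9, 17, 18 and 21. In PBS replicates 4, 10, 12 and 16 it was 28.9, 25.2, 31.2 and 27.3. On this index PM2.5 replicate 21 lay among the PBS libraries and the other 3 PM2.5 libraries below all of them. The means were 23.9 ± 3.21 and 28.1 ± 2.53 (SD, n = 4 each), and the groups overlapped. The index tends to be lower with fewer counts. Those 3 libraries had 299, 255 and 234 heavy counts, and PBS replicate 12, with the highest index, had 298. In the depth-free form of the index PM2.5 replicate 17 (27.4) was above PBS replicate 10 (26.1). The means were then 25.9 ± 3.30 and 29.9 ± 3.61 (SD, n = 4 each). With FPKM in place of counts the groups did not overlap, with 21.5 to 27.9 against 28.1 to 33.7. With segments under a mean count of 10 left out they overlapped, with means of 7.89 ± 0.925 and 8.70 ± 0.584 (SD, n = 4 each). The difference of means was then -0.81 in place of -4.23, on a smaller scale because fewer segments remained. No test was made of these indices.

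For kappa segments the effective number was 31.4, 22.9, 19.7 and 28.3 with PM2.5 and 30.2, 31.7, 26.0 and 28.0 with PBS, in the same order of replicates. PM2.5 replicates 17 and 18 had the lowest effective numbers and replicates 9 and 21 lay within the PBS range. By Pielou evenness PBS replicates 16 and 4 were the lowest, at 0.874 and 0.880, with PM2.5 replicates 18 and 17 at 0.881 and 0.884. The means of the effective number were 25.6 ± 5.26 and 29.0 ± 2.48 (SD, n = 4 each). Without PM2.5 replicates 17 and 18 the difference of means changed sign, from -3.41 to 0.87, so the lower kappa mean rests on those 2 libraries. They are also the libraries with the fewest V counts and with counts of neuronal genes, and the part of either was not tested.

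**Figure D5:**
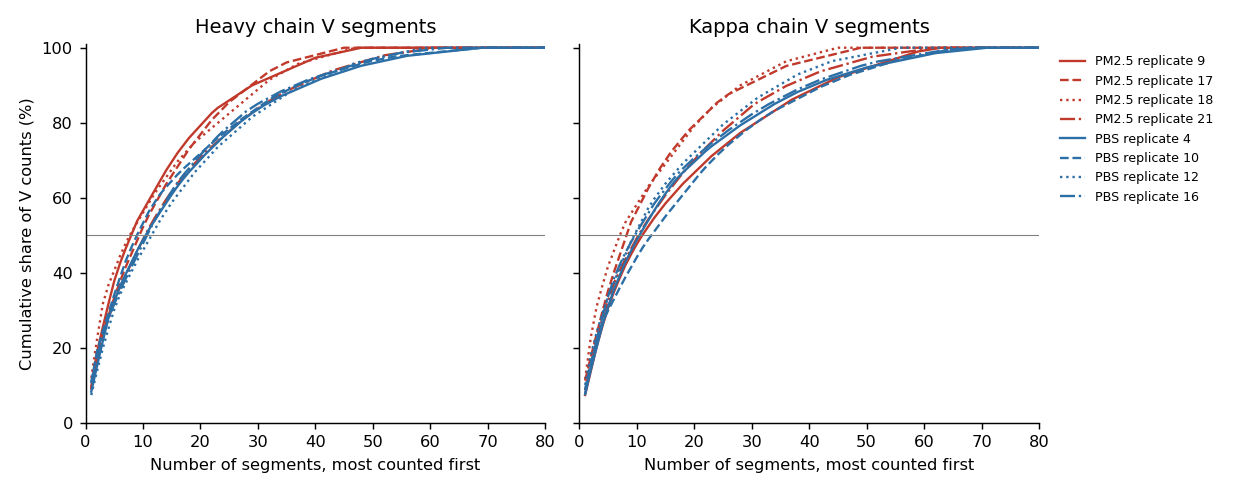
Cumulative share of V counts (percent) against the number of segments, most counted first, for the heavy and kappa loci; each line is a library, red for PM2.5 and blue for PBS, and the grey line marks 50%. Between 8 and 13 segments make up 50% of the counts in every library.

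The number of segments counted was compared with and without equal depth. Per library, 94 to 126 of the 216 segments had a count with PM2.5 and 118 to 143 with PBS. At the depth of the shallowest library, 234 heavy and 249 kappa counts, the expected numbers were 44.2 to 53.5 heavy segments with PM2.5 and 52.3 to 55.8 with PBS, and 45.0 to 58.7 and 52.3 to 58.9 kappa segments. At equal depth the groups overlapped for both loci, and the difference in the number of heavy and kappa segments together was -11.4 in place of -26.0. The 5 most counted heavy segments took 32.2% to 40.6% with PM2.5 and 30.2% to 34.1% with PBS, and the 5 most counted kappa segments 30.6% to 41.8% and 29.9% to 33.7%.

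Libraries were also compared in pairs. The dissimilarity of a pair of libraries, the percentage of V counts that would have to change segment to make the 2 alike, was 33.8% to 39.8% for heavy segments among PM2.5 libraries and 28.7% to 33.1% among PBS libraries. Between groups it was 28.9% to 39.9%. For kappa segments it was 29.7% to 39.3% among PM2.5 libraries, 26.3% to 30.4% among PBS libraries and 25.2% to 41.1% between groups. The heavy medians were 36.7% among PM2.5 libraries, 30.6% among PBS libraries and 35.2% between groups. The kappa medians were 36.4%, 29.0% and 31.6%. PM2.5 libraries had 693 ± 196 V counts against 1197 ± 370 (SD, n = 4 each), and the part of depth in these medians was not tested.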

How the data were processed

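RNA libraries of buffy coats were primed at random, with dUTP marking the second strand, per the labels' protocols. For reads, HISAT2 2.0.1, cutadapt 1.9.1 and the build GRCm38 stand in the submitters' processing notes; which tool counted, and whether by strand, is not given in the sources used here. The values the authors deposited are, per the file headers, expected counts per transcript, not normalized. The authors also deposited FPKM values, scaled by transcript length and library, per the file headers. Of 118783 transcripts, 116710 had a GENCODE M21 entry, and their values were added up over 35944 genes. The 2 IG_V_gene entries with other names (3 counts in all) are no members. After rounding, sums went into edgeR 4.0.16 under R 4.3.3 (quasi-likelihood, TMM, filterByExpr with a minimum count of 10 and total of 15, group alone, two-sided, threshold 0.05). Each SE is the log2 fold change divided by the root of its F statistic. DESeq2 1.42.0 and limma 3.58.1 on log2(FPKM + 1) were alternatives. Shares use counts within a locus, with exact (Clopper-Pearson) 95% intervals from scipy 1.17.1. A count of 0 allows 3 counts.

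The comparison procedure was tested on simulated data. Its performance at the low levels of single V segments was not tested. Libraries of every pair differed beyond sampling noise (chi-square per degree of freedom at least 16.3), so all 8 were kept. Members and lists were chosen with earlier results of these data known. Named segments were those past the test, the 6 heavy, 6 kappa and 3 lambda with the highest mean share, each library's first segment, the 4 heavy and 4 kappa with the widest range of shares, and the 3 highest and 3 lowest log2 fold changes. Genes of the lists were named where they passed, or as background. Alternatives covered scaling, filter, tool, pseudocount (0.1 in place of 1), subgroup sums, denominators, evenness indices and each library left out.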

Additional observations from a re-analysis of the deposited data

Results flagged for a closer look

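In 5 of 70 groups of 4 libraries, 1 library stood apart from the other 3 by Dixon's 95% criterion on the gap over the range. The usual chance rate of about 1 in 20 does not apply here. Some of the segments examined were named for a wide range of shares or an extreme fold change, and shares within a locus depend on each other. Each of the 5 was a share of a segment within its locus. Ighv1-26 was at 8.29% in PBS replicate 4, against 4.60% to 5.03% in the other PBS libraries. Ighv1-72 was at 9.40% in PM2.5 replicate 18. Igkv6-15 was at 7.31% in PBS replicate 16. Igkv6-20 was at 2.22% in PM2.5 replicate 9, where the other PM2.5 libraries had 0 or 1 count. Iglv2 was at 36.4% in PBS replicate 12, on 8 of 22 lambda counts.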

How the results depend on the processing

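No V segment passed the test under any of the 17 alternatives, single libraries left out included. The count over all genes was 166 as reported, 483 (8 higher, 475 lower) with scaling to library totals, 624 (313 higher, 311 lower) without a filter, 371 by DESeq2, 0 by limma with either pseudocount, 8 without PM2.5 replicates 17 and 18, and 31 to 192 without single libraries, lowest without PBS replicate 10; the cause was not tested. Scaling to totals moved the median log2 change of all genes from 0.04 to -0.52. Of 16 named segments tested, 8 kept their direction throughout and 8 did not, mostly on scales that shift the median of all genes. With library totals the log2 fold change was -0.24 for Ighv1-19, -0.54 for Ighv1-26, -0.54 for Ighv14-3, -0.42 for Igkv1-117, -0.39 for Igkv1-110, -0.20 for Igkv10-94 and -0.55 for Iglv1. By limma on log2(FPKM + 1) it was -0.12 for Ighv1-19, -0.42 for Ighv1-26, -0.43 for Ighv14-3, -0.27 for Igkv1-117, -0.25 for Igkv1-110, -0.13 for Igkv10-94 and -0.18 for Iglv1. With a pseudocount of 0.1 it was -0.13 for Ighv1-19, -0.53 for Ighv1-26, -0.87 for Ighv14-3, -0.33 for Igkv1-117, -0.40 for Igkv1-110, -0.27 for Igkv10-94 and -0.12 for Iglv1. With haemoglobin removed Ighv1-26 was at -0.0022. With PM2.5 replicates 17 and 18 left out, values were -0.36 for Ighv14-3, -0.0151 for Igkv1-117, 0.0367 for Igkv6-23 and -0.13 for Iglv1. Without single libraries it ran from -0.22 to 0.25 for Ighv1-26, -0.61 to 0.48 for Ighv14-3 (lowest without PM2.5 replicate 17), -0.10 to 0.43 for Igkv1-110 and -0.16 to 0.55 for Iglv1. The cause of these reversals was not tested.

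The log2 ratio of V totals was -0.21 as reported, -0.81 over all counts, -0.58 over counts outside haemoglobin and -0.79 by FPKM. For heavy totals these were -0.24, -0.85, -0.61 and -0.86, for kappa totals -0.21, -0.79, -0.56 and -0.74, and for lambda totals -0.04, -0.72 (all counts) and -0.68 (FPKM). Without single libraries these ran from -0.32 to -0.14 for all V, -0.35 to -0.15 for heavy, -0.31 to -0.11 for kappa (lowest without PBS replicate 12 for each) and -0.27 to 0.30 for lambda (without PBS replicates 12 and 16). The difference in the effective number of heavy segments was -4.23. With segments under a mean count of 10 left out it was -0.81, between smaller means of 7.89 with PM2.5 and 8.70 with PBS. For kappa it was -3.41, 0.87 without PM2.5 replicates 17 and 18, and -5.35 to -1.45 without single libraries. The difference in segments counted was -26.0, and -11.4 at equal depth. V counts limit this comparison: standard errors of the tested segments were 0.275 to 0.828 on the log2 scale. No paired analysis was possible because the groups share no replicate numbers.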
